A study of Rattus norvegicus with 6 samples.

Results

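The 10 genes followed here mark the blood-brain barrier endothelium and the mural cells of brain vessels. They were measured in brain sections of aged rats labelled as prefrontal cortex: Cldn5, Pecam1, Flt1, Slc2a1, Abcb1a, Slco1a4, Pdgfrb, Rgs5, Vtn and Acta2. They were chosen by symbol, as the endothelial and mural markers of the tissue. Of these 10 genes, 8 had a row of their own among 30076 symbols, and all 8 were among the 10643 genes tested. Pecam1 and Abcb1a had no row of their own under their symbols and are not analysed here beyond the loci described near the end.

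The manipulated group was 3 male F344 rats aged 18 months that had 7 days of cranial osteopathic manipulation (COM), a manual treatment of the head, given under 1.5 to 3% isoflurane. The untreated group was 3 male F344 rats of the same age that were anaesthetised as well and had no manipulation. A coronal section 1 mm thick was taken with a rat brain matrix, and each rat gave 1 library of bulk RNA, manipulated replicates 4, 5 and 6 and untreated replicates 1, 2 and 3. The question set by the design is whether COM goes with a difference in expression. The labels give no batch or pairing and do not say whether rats were processed on the same day, so p-values measure the spread between these libraries.

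The capillaries of the brain are lined by endothelial cells joined by tight junctions, which leave little room for solutes to pass between cells. Nutrients such as glucose therefore cross on carriers, and many drugs are pumped back to the blood. Pericytes lie on capillaries within the basement membrane, while contractile smooth muscle cells wrap arterioles and arteries. Both kinds of mural cell are recruited by signals from the endothelium.

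Levels are the FPKM that the authors deposited, which divide the fragments of a gene by its transcript length and the library's mapped total. A log2 fold change is the manipulated minus the untreated mean of log2(FPKM + 1), a scale on which changes of low genes come out smaller. The scale of the libraries differed, with a median over tested genes of 4.01, 4.07 and 2.75 FPKM in manipulated replicates 4, 5 and 6, against 5.49, 3.98 and 5.17 FPKM in untreated replicates 1, 2 and 3. The median log2 fold change over all tested genes was -0.36, and 87.0% of them lay below 0. Rescaling each library by its median ratio to the others brought that median to -0.0036, so the direction of each member is also given on the rescaled values. The assembled rows without a gene name also differed, with 35559, 17102 and 36546 in manipulated replicates 4, 5 and 6. Untreated replicates 1, 2 and 3 had 83180, 51528 and 66414. The part of this difference in the FPKM was not tested. Depth cannot be read from FPKM. The deposited intervals of 46 of the 48 member values reached 5.83 to 15.4% of the value to each side, with wider ones of 41.97% for Acta2 in manipulated replicate 6 and 30.6% for Slco1a4 in manipulated replicate 4.

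Some markers of other cell types also differed between the groups. Summed over 10 marker genes of thalamic and hypothalamic neurons, FPKM was 16.6 to 80.5 in manipulated and 149 to 216 in untreated libraries. The 80.5 came from manipulated replicate 6, while replicate 4 summed to 16.6 and replicate 5 to 17.3. Most of the replicate 6 sum was Oxt (46.5 FPKM) and Avp (23.4 FPKM). Oxt was 3.70 in replicate 4 and 3.97 in replicate 5, and Avp was 0.811 and 0.812. Untreated libraries held 16.2 to 40.5 FPKM of Oxt and 25.8 to 31.6 FPKM of Avp. The manipulated sections thus differed from each other in Oxt and Avp. For 9 striatal neuron markers the sums were 74.1 to 190 FPKM in manipulated and 44.0 to 68.7 FPKM in untreated libraries, and for 9 cortical neuron markers 222 to 382 FPKM in manipulated and 258 to 323 FPKM in untreated libraries. Cortical markers were present in both groups. The sections labelled prefrontal cortex also held RNA of thalamic, hypothalamic and choroid plexus marker genes, so the vascular values are those of whole sections and not of prefrontal cortex alone. Of the 10 thalamic and hypothalamic genes, 7 were lower in manipulated rats past an adjusted p of 0.05 in limma: Slc17a6, Tcf7l2, Lef1, Prkcd, Shox2, Pmch and Ramp3. Pmch had 20.1, 19.2 and 30.5 FPKM in untreated libraries, against 0.125, 0.0815 and 0 FPKM in manipulated libraries. For 8 choroid plexus markers the sums were 240, 1242 and 1004 FPKM in manipulated replicates 4, 5 and 6. In untreated libraries they were 461 to 468 FPKM. Nearly all of each sum was Ttr. All 7 tested choroid plexus genes had log2 fold changes above 0, with a median of 0.71. None was called, and 3 had an unadjusted p under 0.05 in limma, beside 15.1% of all tested genes. The part of these differences in the vascular values was not tested.

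None of the 8 vascular genes differed between the groups past an adjusted p of 0.05 in limma, beside 0.357% of all tested genes called (0.0846% higher and 0.272% lower). The lowest adjusted p among them was 0.322, for Acta2. At an unadjusted p under 0.05 Acta2 passed, 1 of 8, beside 15.1% of all tested genes, so the share is near the background. No member had groups without overlap, beside 24.8% of all tested genes (1.08% higher and 23.7% lower). Of the 8 log2 fold changes 5 lay below 0 and 3 above it, with a median of -0.17 beside -0.36 over all genes. After rescaling 0 of 8 were called, beside 0.291% of all genes (0.094% higher and 0.197% lower), 6 lay above 0 and 2 below, and the median was 0.20. In these bulk sections, fewer cells of a type and less RNA per cell cannot be told apart.

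**Figure D1:**
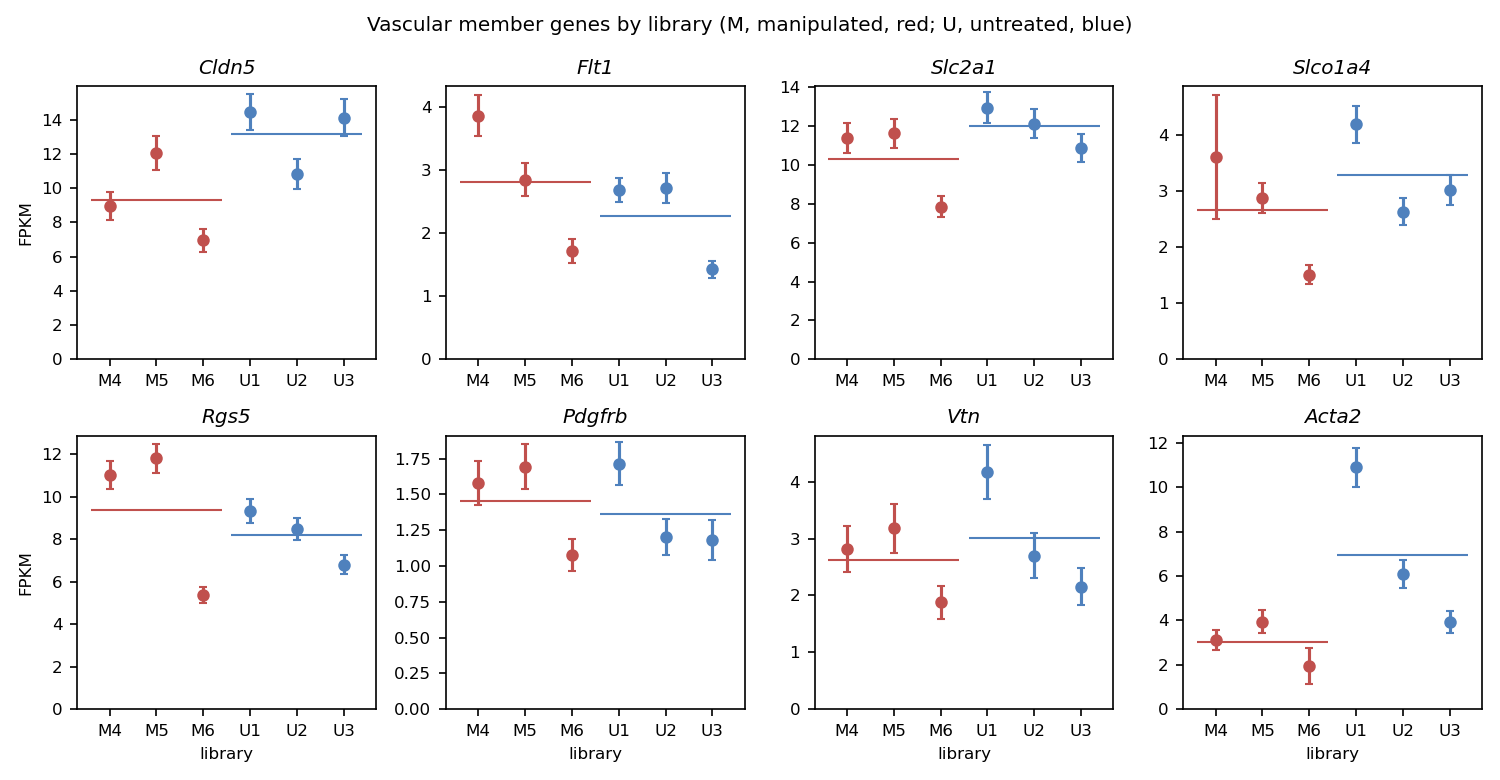
FPKM of the 8 vascular genes in each library, on an axis from 0 for each gene, with manipulated replicates (M) left of untreated replicates (U); points are libraries, error bars the deposited intervals and horizontal lines group means. The groups overlap for every gene, and for Acta2 the manipulated values of 1.95 to 3.94 FPKM meet the untreated values of 3.91 to 10.9 FPKM only at their edge.

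Cldn5 encodes claudin-5, the main claudin of endothelial tight junctions in the brain, and had the highest mean of the 8 genes, 11.2 FPKM over the 6 libraries. It lies on chromosome 11 at 86356294 to 86357718 (Rnor_6.0). Its FPKM was 8.97, 12.1 and 6.95 in manipulated replicates 4, 5 and 6, against 14.5, 10.9 and 14.1 in untreated replicates 1, 2 and 3. Of the manipulated values, 2 lay under all untreated values, and replicate 5 lay between them. Means are given with their SD over the 3 rats of a group. They were 9.33 ± 2.58 FPKM in manipulated and 13.1 ± 1.99 FPKM in untreated rats (SD, n = 3 each), a log2 fold change of -0.47 (SE 0.27; limma adjusted p 0.342) and an exact permutation p of 0.2. The smallest p that 3 libraries against 3 allow in the exact test is 0.1. After rescaling the values were 9.47, 12.1 and 10.7 in manipulated and 10.9, 11.4 and 11.3 in untreated libraries, and the log2 fold change was -0.06.

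Slc2a1 encodes GLUT1, the carrier that takes glucose across the barrier, and its mean of 11.1 FPKM was close to that of Cldn5. The gene lies on chromosome 5 at 138154673 to 138182897. Its FPKM was 11.4, 11.6 and 7.86 in manipulated libraries, against 13.0, 12.1 and 10.9 in untreated libraries. Only manipulated replicate 6 lay outside the untreated range. The means of 10.3 ± 2.11 FPKM in manipulated and 12.0 ± 1.05 FPKM in untreated rats gave a log2 fold change of -0.22 (SE 0.25; limma adjusted p 0.565), and the sign turned to 0.20 after rescaling.

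Slco1a4 encodes an organic anion transporter (Oatp1a4 in rodents) found on brain capillary endothelium, and lies on chromosome 4 at 175969549 to 176026163. Its FPKM was 3.60, 2.88 and 1.50 in manipulated libraries, against 4.18, 2.63 and 3.02 in untreated libraries. Manipulated replicate 6 lay under all untreated libraries, and replicates 4 and 5 lay within their range. The log2 fold change was -0.25 (SE 0.27; limma adjusted p 0.536), and 0.07 after rescaling. Slco1a4 has close relatives beside it in the genome, and how the authors' counting shared reads among them is not given in the sources used here.

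Flt1, which encodes a receptor for VEGF on endothelial cells, was the endothelial gene with the highest fold change. It lies on chromosome 12 at 9034268 to 9205905. Its FPKM was 3.87, 2.85 and 1.72 in manipulated libraries, against 2.69, 2.72 and 1.43 in untreated libraries. Manipulated replicates 4 and 5 lay above all untreated libraries and replicate 6 between them. The means were 2.81 ± 1.07 FPKM in manipulated and 2.28 ± 0.740 FPKM in untreated rats, and the log2 fold change was 0.20 (SE 0.28; limma adjusted p 0.623). Rescaling gave 0.51 with an adjusted p of 0.492.

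Among the mural genes, Pdgfrb encodes the receptor through which endothelial PDGF-B recruits pericytes. It was the lowest of the 8 genes, with a mean of 1.41 FPKM, and 8.91% of tested genes had a lower mean. It lies on chromosome 18 at 56364542 to 56406381. Pdgfrb had 1.58, 1.69 and 1.08 FPKM in manipulated libraries, against 1.72, 1.20 and 1.18 FPKM in untreated libraries, a log2 fold change of 0.05 (SE 0.25; limma adjusted p 0.893). After rescaling it was the 1 member whose groups did not overlap, with 1.67, 1.70 and 1.66 in manipulated against 1.30, 1.26 and 0.943 in untreated libraries. That count of 1 of 8 stands beside 10.1% of all tested genes that were higher without overlap after rescaling and 9.86% that were lower. The rescaled log2 fold change was 0.31 (SE 0.13), with an unadjusted p of 0.0485 and an adjusted p of 0.438 in limma.

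Rgs5 encodes a regulator of G protein signalling that is abundant in brain pericytes. It lies on chromosome 13 at 87966754 to 88006309. It had 11.01, 11.8 and 5.36 FPKM in manipulated libraries, against 9.31, 8.49 and 6.80 FPKM in untreated libraries. Manipulated replicates 4 and 5 were the highest of all 6 libraries and replicate 6 was the lowest. The log2 fold change was 0.12 (SE 0.31; limma adjusted p 0.794). After rescaling it was 0.52 (SE 0.21), with an unadjusted p of 0.0465 and an adjusted p of 0.435. Pdgfrb and Rgs5 were the 2 of 8 members under an unadjusted p of 0.05 after rescaling, beside 11.3% of all genes.

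Vtn encodes vitronectin, an adhesive matrix protein made in brain by pericytes, and lies on chromosome 10 at 65767053 to 65771038. Its FPKM was 2.81, 3.18 and 1.88 in manipulated libraries, against 4.18, 2.7 and 2.16 in untreated libraries. The groups overlapped, and untreated replicate 1 was the only library clearly above the rest. The log2 fold change was -0.13 (SE 0.26; limma adjusted p 0.723), and 0.20 after rescaling.

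**Figure D2:**
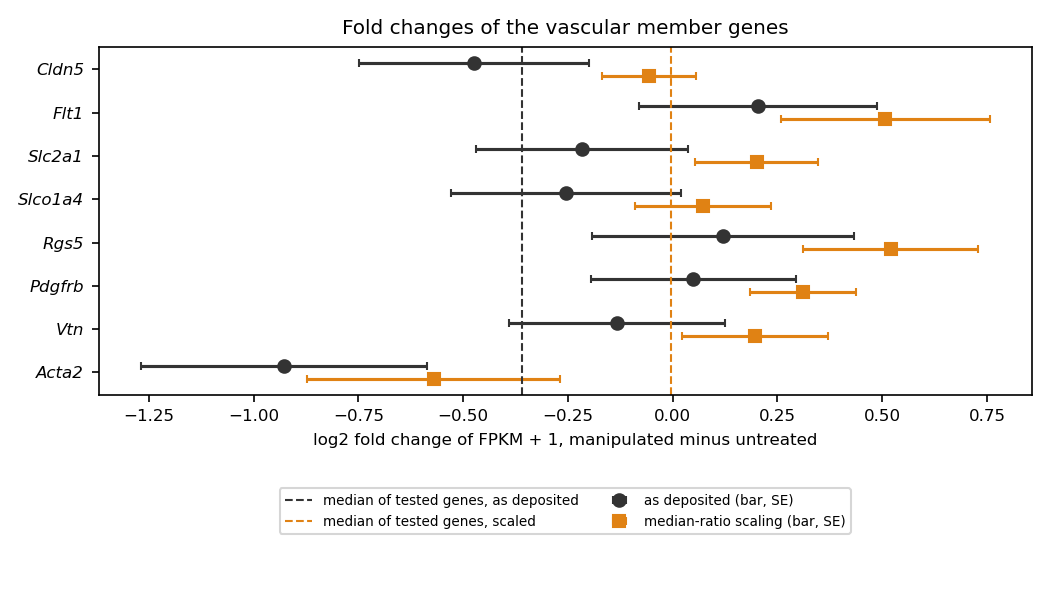
Log2 fold change (manipulated minus untreated) of the 8 vascular genes with its standard error, from the deposited FPKM and after median-ratio rescaling; lines mark the median of all tested genes on each scale. Acta2 is lowest on both scales, at -0.93 and -0.57, and Slc2a1, Slco1a4 and Vtn change sign between them.

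Acta2 encodes the smooth muscle actin of arterial and arteriolar walls and was the member with the lowest fold change. It lies on chromosome 1 at 252537615 to 252550394. Its FPKM was 3.13, 3.94 and 1.95 in manipulated replicates 4, 5 and 6, against 10.9, 6.09 and 3.91 in untreated replicates 1, 2 and 3. Manipulated replicate 5 lay just above untreated replicate 3, and the other manipulated values lay under every untreated value. The means were 3.01 ± 1.00 FPKM in manipulated and 6.97 ± 3.58 FPKM in untreated rats (SD, n = 3 each), a ratio of 0.432. The log2 fold change was -0.93 (SE 0.34), with an unadjusted p of 0.0235, an adjusted p of 0.322 in limma and an exact permutation p of 0.2. Of all tested genes, 4.61% had a lower fold change. After rescaling the values were 3.31, 3.96 and 3.02 in manipulated and 8.24, 6.38 and 3.13 in untreated libraries, and the log2 fold change was -0.57 (SE 0.30; limma adjusted p 0.514).

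The spread of Acta2 rested in part on untreated replicate 1. Without that library the log2 fold change was -0.59 with an unadjusted p of 0.113, and over all alternatives run it lay between -1.23 and -0.50. From the lowest to the highest of the 6 libraries Acta2 differed 5.58-fold, the widest of the 8 genes, while the others differed between 1.59-fold (Pdgfrb) and 2.78-fold (Slco1a4). Actin genes share long stretches of coding sequence, and how reads that fit several of them were shared out is not given in the sources used here.

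The promoters of 4 members are printed, that of Acta2 as the member with the lowest fold change and those of Rgs5, Cldn5 and Slc2a1 as the 3 members with the highest mean level. Each is the 250 bases before the gene's start in RefSeq's GRCr8 assembly, 5′ to 3′ on the gene's strand: Acta2 at chr1:241172504-241172753 (minus), Rgs5 at chr13:84380827-84381076 (plus), Cldn5 at chr11:95718599-95718848 (minus) and Slc2a1 at chr5:138002272-138002521 (plus). Capitals mark CArG boxes, the element bound by serum response factor, or GGGCGG on either strand (CCGCCC on the other), the GC box.
Acta2: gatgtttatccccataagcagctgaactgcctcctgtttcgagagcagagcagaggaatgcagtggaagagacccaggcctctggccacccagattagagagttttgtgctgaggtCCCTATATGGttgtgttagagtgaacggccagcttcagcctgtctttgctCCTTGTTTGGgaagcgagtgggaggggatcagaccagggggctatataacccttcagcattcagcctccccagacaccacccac
Rgs5: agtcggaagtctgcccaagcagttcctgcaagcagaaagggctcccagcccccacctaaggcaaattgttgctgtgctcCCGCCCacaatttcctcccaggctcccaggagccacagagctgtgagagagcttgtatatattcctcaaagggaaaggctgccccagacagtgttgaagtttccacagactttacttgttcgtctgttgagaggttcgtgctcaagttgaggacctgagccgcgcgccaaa
Cldn5: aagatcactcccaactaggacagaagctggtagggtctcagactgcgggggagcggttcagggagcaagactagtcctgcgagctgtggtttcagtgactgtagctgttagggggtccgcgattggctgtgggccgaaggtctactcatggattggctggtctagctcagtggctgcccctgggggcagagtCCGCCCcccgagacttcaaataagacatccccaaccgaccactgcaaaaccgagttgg
Slc2a1: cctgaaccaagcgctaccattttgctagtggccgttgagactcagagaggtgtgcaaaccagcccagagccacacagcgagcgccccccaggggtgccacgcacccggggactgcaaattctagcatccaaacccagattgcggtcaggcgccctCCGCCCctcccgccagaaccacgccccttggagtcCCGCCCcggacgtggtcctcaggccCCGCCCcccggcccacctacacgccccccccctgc

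A CArG box was searched as CC, 6 bases of which at most 1 was not A or T, and GG, on both strands, and none of its matches shown overlaps a GC box match. The Acta2 window held 2 of them, CCCTATATGG at 134 and CCTTGTTTGG at 84 bases before the start, and no GGGCGG. The Rgs5, Cldn5 and Slc2a1 windows held no CArG box. GGGCGG matched once in Rgs5, 171 bases before the start, once in Cldn5, at 58 bases, and 3 times in Slc2a1, at 95, 60 and 35 bases. Of 27457 promoters of this length, 7.97% held a CArG box and 32.4% held GGGCGG. Of the 8 members in the promoter table, 2 held a CArG box (Acta2 and Slco1a4) and 6 held GGGCGG. A CArG box was in 0 of 9 promoters of the other smooth muscle genes, 2 of 11 of pericyte, 2 of 10 of endothelial identity and 3 of 12 of junction genes. A match describes letters in the window and says nothing of binding in these rats.

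Ratios of 2 members within a library do not depend on the scale of that library. They were computed after the members' values had been seen. Acta2 over Rgs5 was 0.284, 0.334 and 0.364 in manipulated libraries, against 1.17, 0.717 and 0.576 in untreated libraries, a log2 difference of -1.27. The manipulated ratios were close to each other and all lay under the lowest untreated ratio. Acta2 over Pdgfrb was 1.98, 2.33 and 1.81 in manipulated libraries, against 6.36, 5.07 and 3.31 in untreated libraries, a log2 difference of -1.22. Acta2 over Vtn was 1.11, 1.24 and 1.04 in manipulated libraries, against 2.61, 2.25 and 1.81 in untreated libraries, a log2 difference of -0.97. Relative to each of these 3 mural genes, Acta2 was lower in every manipulated library than in any untreated library.

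The same held against 2 of the 4 endothelial genes. Acta2 over Slc2a1 was 0.275, 0.339 and 0.249 in manipulated libraries, against 0.842, 0.501 and 0.360 in untreated libraries. Acta2 over Flt1 was 0.809, 1.38 and 1.14 in manipulated libraries, against 4.05, 2.23 and 2.74 in untreated libraries. Against Cldn5 the ratios overlapped, with 0.349, 0.327 and 0.281 in manipulated libraries and 0.754, 0.561 and 0.277 in untreated libraries, and against Slco1a4 they overlapped at 1.30.

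**Figure D3:**
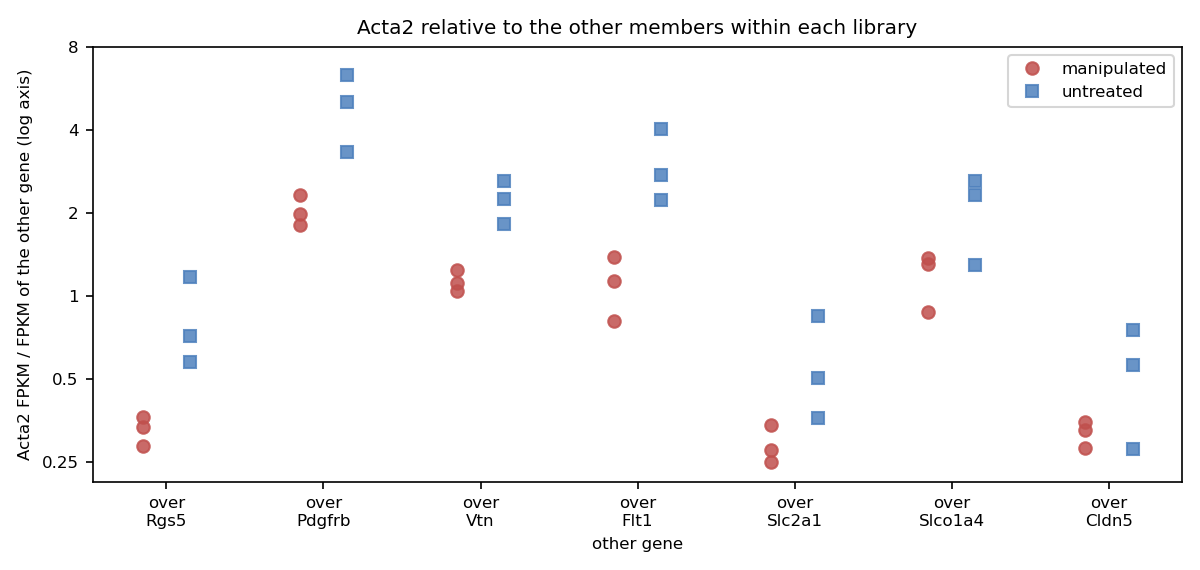
Ratio of Acta2 FPKM to the FPKM of each of the other 7 vascular genes within a library (log axis), manipulated libraries left of untreated libraries. The groups do not overlap for Rgs5, Pdgfrb, Vtn, Flt1 and Slc2a1, and overlap for Slco1a4 and Cldn5.

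Of all 28 ratios between 2 members, 7 did not overlap between groups, which is 25% beside 20.5% of all pairs of tested genes, so the share is near the background. Acta2 was in 5 of the 7, and Pdgfrb was in 1 of these 5 and in both of the others. The other 2 were Cldn5 over Pdgfrb, at 5.68, 7.12 and 6.45 in manipulated against 8.43, 9.04 and 12.0 in untreated libraries, and Slc2a1 over Pdgfrb, at 7.22, 6.86 and 7.29 in manipulated against 7.55, 10.1 and 9.21 in untreated libraries. Each of the 7 had an exact permutation p of 0.1, the smallest the design allows, and 0.4 after Benjamini-Hochberg adjustment over the 28. Leaving out any 1 library kept the Acta2 over Rgs5 log2 difference between -1.49 and -0.98.

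Each member was also set against every other tested gene above 0 in all libraries, 9890 genes, as a description of where it stands. The ratio of Acta2 to the other gene was lower without overlap for 17.3% of them and higher for 0.364%. For Pdgfrb it was higher for 57.0% and lower for 0.819%, and for Rgs5 higher for 30.9% and lower for 0.627%. Flt1 was higher relative to 25.2% and lower relative to 0.243%. Cldn5 stood between them, higher relative to 4.73% and lower relative to 10.5%. Slc2a1 was higher relative to 13.7% and lower relative to 3.15%, Vtn higher relative to 15.1% and lower relative to 1.42%, and Slco1a4 higher relative to 5.75% and lower relative to 3.2%. For comparison, 20.5% of all pairs of tested genes did not overlap in either direction. Pdgfrb and Rgs5 were higher without overlap relative to many tested genes, so their separation from Acta2 was not particular to Acta2. Genes compared in this way share libraries and are not independent of each other.

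The other smooth muscle genes were read beside Acta2. Of 14 genes in that list 11 had a row of their own and 7 were tested. None was called by limma, 6 of 7 log2 fold changes lay below 0, and the median was -0.25, above the -0.36 of all genes, and 0.11 after rescaling, with 4 of 7 above 0. Mylk and Tpm2 passed an unadjusted p of 0.05, 2 of 7 beside 15.1% of all tested genes, and were the 2 with groups that did not overlap, beside 23.7% of all genes lower without overlap.

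Mylk encodes myosin light chain kinase, which starts contraction. It had 1.68, 1.01 and 0.953 FPKM in manipulated libraries, against 3.15, 2.63 and 2.53 FPKM in untreated libraries. All manipulated values lay well under the untreated ones, with a log2 fold change of -0.78 (SE 0.23), an unadjusted p of 0.00778 and an adjusted p of 0.3002 in limma, and -0.49 after rescaling. Tpm2, a tropomyosin, had 2.7, 3.84 and 2.02 FPKM in manipulated libraries, against 6.14, 3.91 and 4.94 FPKM in untreated libraries. Its log2 fold change was -0.65, with an adjusted p of 0.326 in limma, and -0.29 after rescaling. Myl9, the regulatory light chain, averaged 3.03 ± 0.794 FPKM in manipulated and 4.49 ± 0.906 FPKM in untreated rats, with overlapping groups and an adjusted p of 0.333. Tpm1, which many other cells express, averaged 18.2 ± 6.01 FPKM in manipulated and 21.4 ± 4.203 FPKM in untreated rats and had an adjusted p of 0.593.

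Of the 4 smooth muscle genes with a mean of 0.1 to 1 FPKM, 2 had lower values in manipulated libraries without overlap, beside 22.4% of all genes at that level (1.82% were higher). Cnn1, calponin, had 0.0959, 0.110 and 0.130 FPKM in manipulated libraries, against 0.671, 0.409 and 0.237 FPKM in untreated libraries. Pln, phospholamban, had 0.165, 0.208 and 0.137 FPKM in manipulated libraries, against 0.659, 0.373 and 0.382 FPKM in untreated libraries. Lmod1, leiomodin, at the same level, overlapped with 0.823, 1.15 and 0.551 FPKM in manipulated and 1.25, 1.01 and 0.580 FPKM in untreated libraries. Myh11, the smooth muscle myosin heavy chain, was joined with a neighbour in some libraries, and the rows that hold it read 0.732, 1.25 and 0.454 FPKM in manipulated and 1.63, 4.18 and 5.70 FPKM in untreated libraries. Tagln, also in a shared row, overlapped, with 5.74, 14.6 and 11.2 FPKM in manipulated and 32.5, 6.02 and 8.47 FPKM in untreated libraries.

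Few pericyte genes reached the level needed for the test. Of 16 genes 14 had a row of their own and 3 were tested, with no call by limma, none under an unadjusted p of 0.05 and none without overlap, and their median was 0.07 (0.31 after rescaling). Mcam averaged 4.46 ± 1.87 FPKM in manipulated and 4.82 ± 0.758 FPKM in untreated rats (adjusted p 0.724 in limma). Cspg4, the NG2 proteoglycan of pericytes and oligodendrocyte precursors, averaged 1.60 ± 0.727 FPKM in manipulated and 1.33 ± 0.248 FPKM in untreated rats (adjusted p 0.753). Cox4i2, a subunit of cytochrome oxidase, had an adjusted p of 0.887. Among the 11 low genes, 1 was lower without overlap, beside 22.4% of all genes of mean 0.1 to 1 FPKM. It was Des, desmin, which smooth muscle also makes, at 0.432, 0.532 and 0.425 FPKM in manipulated and 1.51, 0.948 and 0.753 FPKM in untreated libraries. Notch3, at 1.03, 0.951 and 0.588 FPKM in manipulated and 0.841, 0.644 and 0.622 FPKM in untreated libraries, and Abcc9 overlapped.

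**Figure D4:**
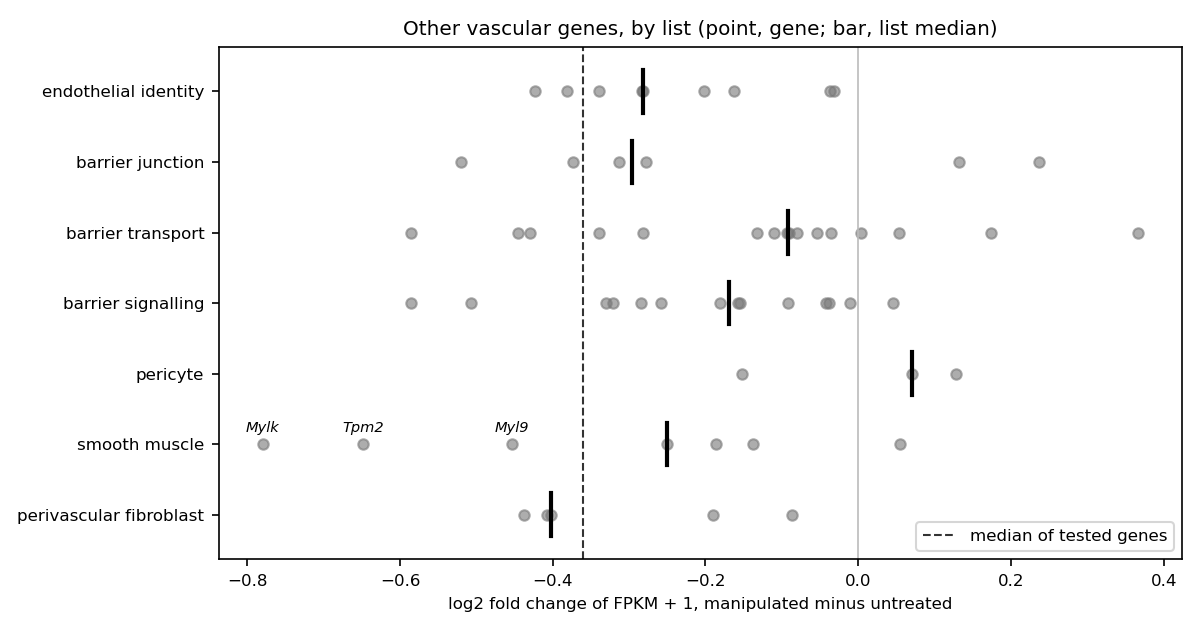
Log2 fold change (manipulated minus untreated) of the tested genes in 7 vascular gene lists, with each list's median and the median of all tested genes at -0.36. List medians lie between -0.40 for perivascular fibroblast genes and 0.07 for pericyte genes, and no gene in these lists passed the adjusted p.

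Of 20 endothelial identity genes, 19 had a row and 9 were tested. None was listed at 0 in every library. All 9 tested genes had log2 fold changes below 0, with a median of -0.28 that became 0.01 after rescaling, and none was called by limma, passed an unadjusted p of 0.05 or had groups without overlap. Vwf, von Willebrand factor, averaged 1.25 ± 0.290 FPKM in manipulated and 2.03 ± 0.569 FPKM in untreated rats, with an adjusted p of 0.346. Icam2 had an adjusted p of 0.410. Egfl7 had 0.415. Cd34, with the highest mean of the tested list, averaged 4.76 ± 1.26 FPKM in manipulated and 5.36 ± 0.653 FPKM in untreated rats with an adjusted p of 0.642. The defining genes Cdh5 and Kdr were low, at 0.473 to 0.778 and 0.383 to 0.683 FPKM in manipulated and 0.541 to 1.18 and 0.597 to 1.18 FPKM in untreated libraries.

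Among 13 junction genes 12 had a row and 6 were tested, 4 below 0 and 2 above, with a median of -0.30 (0.05 after rescaling) and none called or under an unadjusted p of 0.05 in limma. Of the 6, 2 were lower without overlap, beside 23.7% of all genes. Ctnnb1, beta-catenin, had 23.8, 20.7 and 14.4 FPKM in manipulated libraries, against 34.5, 24.2 and 26.3 FPKM in untreated libraries, with an adjusted p of 0.341 and a log2 fold change of -0.52, or -0.08 after rescaling. Jam2 and Cldn12 overlapped. Tjp1, or ZO-1, shared a row, which read 8.75, 8.61 and 4.89 FPKM in manipulated and 12.7, 8.29 and 8.02 FPKM in untreated libraries.

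Barrier transport had the most tested genes of the vascular lists, 16 of 21. None was called by limma and none had an unadjusted p under 0.05, 12 lay below 0 and 4 above, and the median was -0.09. Slc3a2, the heavy chain of the large amino acid carrier, had 15.6, 15.4 and 10.8 FPKM in manipulated libraries, against 28.1, 16.8 and 19.9 FPKM in untreated libraries. It was the 1 of 16 tested transport genes without overlap, beside 24.8% of all tested genes. Its log2 fold change was -0.59, with an adjusted p of 0.332 in limma, and -0.15 after rescaling. Tfrc, the transferrin receptor, averaged 3.63 ± 1.25 FPKM in manipulated and 5.18 ± 0.885 FPKM in untreated rats (adjusted p 0.346), and Abcc4, an efflux pump, 2.51 ± 0.997 FPKM in manipulated and 3.70 ± 1.16 FPKM in untreated rats (adjusted p 0.373). Lrp1, a receptor that clears ligands from brain, averaged 14.7 ± 2.83 FPKM in manipulated and 15.6 ± 2.82 FPKM in untreated rats (adjusted p 0.841).

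After rescaling, 13 of the 16 transport genes lay above 0 with a median of 0.26, and 7 were higher without overlap, beside 10.1% of all genes. Of the 16, none was called and 4 had an unadjusted p under 0.05 in limma, beside 11.3% of all genes. They included Slc6a6, the taurine carrier, Lrp1 and Slco1c1, a thyroid hormone carrier, with rescaled log2 fold changes of 0.75, 0.35 and 0.25. On the deposited FPKM Slc6a6 had 0.37, and Lrp1 and Slco1c1 had -0.08 and -0.13. Slc6a6 and Slco1c1 were named after their values had been seen.

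Signalling genes of barrier and vessel growth included 14 tested of 22, 13 below 0, with a median of -0.17 (0.09 after rescaling), none called and none under an unadjusted p of 0.05 in limma. Tspan12, a co-receptor for norrin, had 4.19, 4.22 and 2.41 FPKM in manipulated libraries, against 7.22, 4.36 and 6.10 FPKM in untreated libraries. Its log2 fold change was -0.59 (SE 0.26) with an unadjusted p of 0.0522 and an adjusted p of 0.326 in limma, and -0.22 after rescaling. It was the 1 of 14 lower without overlap, beside 23.7% of all tested genes. Ndp, norrin itself, averaged 0.969 ± 0.308 FPKM in manipulated and 1.45 ± 0.317 FPKM in untreated rats (adjusted p 0.434). Vegfa, the ligand of Flt1, averaged 5.99 ± 2.09 FPKM in manipulated and 8.88 ± 3.05 FPKM in untreated rats (adjusted p 0.363).

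Of 13 perivascular fibroblast genes 5 were tested, all below 0 with a median of -0.40 (-0.12 after rescaling), and none was called or under an unadjusted p of 0.05. Aldh1a2, which makes retinoic acid in meninges, averaged 0.853 ± 0.0845 FPKM in manipulated and 1.49 ± 0.562 FPKM in untreated rats, with an adjusted p of 0.375 in limma. It was the 1 of 5 lower without overlap, beside 23.7% of all tested genes. Its log2 fold change was -0.40, and -0.16 after rescaling. Slc6a13, Ogn and Dcn overlapped.

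Blood in the sections was read from haemoglobin and other red cell genes. Over 5 genes with rows of their own the sum was 41.0 to 55.8 FPKM in manipulated and 94.2 to 113 FPKM in untreated libraries, without overlap, and Hba-a3 was listed at 0 in every library. Nearly all of this sum was Hbb. Hbb had 39.0, 54.9 and 41.5 FPKM in manipulated libraries, against 93.4, 91.8 and 112 FPKM in untreated libraries, a log2 fold change of -1.13 (SE 0.29) at an unadjusted p of 0.00351 and an adjusted p of 0.248 in limma, and -0.68 after rescaling. Like Mylk and unlike Acta2, Hbb did not overlap between groups, beside 23.7% of all tested genes lower without overlap. Alas2, which starts haem synthesis in red cell precursors, overlapped, with 1.94, 0.887 and 1.70 FPKM in manipulated and 1.37, 2.25 and 1.16 FPKM in untreated libraries. Rows that hold Hba-a1, joined with other genes, overlapped too, with 204, 278 and 198 FPKM in manipulated and 275, 337 and 330 FPKM in untreated libraries, as did those that hold Hba-a2. Shared rows that hold Hbb-bs were lower without overlap, with 8.60, 36.0 and 26.8 FPKM in manipulated and 58.4, 56.4 and 74.1 FPKM in untreated libraries. The part of blood in the Acta2 values was not tested.

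Pecam1, a junctional adhesion protein of endothelial cells, lies between Tex2 and Milr1 on chromosome 10 in GRCr8, which was used for gene order alone. Between the rows of these neighbours each library held unnamed assembled loci. The longest in each library, at 94850977 to 94886247 (Rnor_6.0) in untreated replicate 1, had 1.65, 2.81 and 1.25 FPKM in manipulated and 2.10, 1.50 and 1.86 FPKM in untreated libraries. These loci differed in extent, with ends from 94881943 in untreated replicate 2 to 94886248 in manipulated replicate 4. In some libraries the rest of the stretch was a separate locus. The files give these loci no gene name, and the groups overlapped.

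Abcb1a encodes a rodent form of P-glycoprotein, the barrier's main drug pump. In GRCr8 it follows Abcb4 and its close paralog Abcb1b on chromosome 4, and Abcb1b had no row of its own either. The row named Abcb4 ran from 22133521 to between 22425515 and 22517240 across libraries (Rnor_6.0). It had 2.92, 3.03 and 1.67 FPKM in manipulated and 3.97, 3.14 and 2.46 FPKM in untreated libraries, with a log2 fold change of -0.25 (SE 0.25; limma adjusted p 0.502). Whether reads of the paralogs fell in it was not tested, and its deposited interval ran from 0 to 14.2 FPKM in untreated replicate 2.

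Across the 6 libraries, manipulated replicate 6 was the lowest for 7 of the 8 members and untreated replicate 1 the highest for 6. The order of mean levels was Cldn5 and Slc2a1, then Rgs5 at 8.79 FPKM, Acta2 at 4.99, Slco1a4 at 2.97, Vtn at 2.82, Flt1 at 2.55 and Pdgfrb at 1.41 FPKM. Cldn5 and Slc2a1 had means close to each other, as did the 3 genes from Slco1a4 to Flt1. Differences in level between genes were not tested. The genes whose log2 values followed Cldn5 most closely were Dnttip2, Acot9 and Cbx8, with Pearson's r of 0.998, 0.996 and 0.996 over 6 libraries. For Rgs5 they were Adgrf5, Dgkb and Diras2, with 0.987, 0.987 and 0.980, and for Acta2 Tctn3, Hacl1 and Fmr1, each at 0.996. These were picked as the highest among 10643 genes, and all genes share the scale differences between libraries.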

How the data were processed

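RNA-seq libraries of 3 manipulated and 3 untreated rats were used. The authors deposited FPKM per gene with an interval and a status, per the file headers, and the submitters' processing notes name STAR 2.7.3a, Cufflinks without a version, and Rnor_6.0. Read totals, strandedness, annotation release and sharing of multi-mapped reads are unknown from the sources used here, so depth is unknown and reads of a gene and its antisense partner cannot be told apart. Where the assembly joined neighbouring genes, their fragments cannot be separated.

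Rows were matched by symbol and summed within a place. Of 30076 symbols, those joined in a row with another (3254), found at several places (162), absent from some library (32) or with a failed estimate (5) were left out, which left 26623. The limma test (3.58.1, R 4.3.3) took log2(FPKM + 1) of the 10643 averaging 1 FPKM or more, two-sided, with no covariate and with the variance trended on the mean, at a Benjamini-Hochberg adjusted p of 0.05 over all of them. Single values were compared by exact two-sided permutation over the 10 splits of 6 libraries. File starts count from 0, since end minus start equalled the RefSeq length in 1861 of 2015 miRNA rows, and are printed from 1. Gene positions are those of the row in untreated replicate 1. Tables and figures used Python 3.11.15, pandas 2.3.3, numpy 2.4.6, scipy 1.17.1 and matplotlib 3.10.9. The fit was tested on simulated data.

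The members and the 16 gene lists were chosen with earlier results of these data known. Named genes were every member, from each list the genes past the adjusted p or otherwise the 3 of smallest p, from vascular lists the 2 of highest mean, and the 3 genes most like Cldn5, Rgs5 and Acta2. Other genes named were chosen after their values were seen, and some named by the rule are given only within their list or are not reported here. Promoters came from RefSeq's GRCr8 and covered 8 of 10 members, without Pecam1 and Pdgfrb. Alternatives covered the pseudocount, filter, scaling, variance model, library weights, joined rows and each library left out; rescaling without manipulated replicate 6, and the ratios without each library, were added after seeing the data.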

Additional observations from a re-analysis of the deposited data

How the results depend on the processing

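No member was called under any of 17 alternatives to the limma fit. The count of all genes called, 38, was 20 with no filter, 940 with library weights, 84 with a robust prior on the variance and 24 with joined rows kept, lay between 28 and 56 with 1 library left out, and between 31 and 38 under the remaining alternatives. The members' median log2 fold change of -0.17 was 0.20 with median-ratio scaling, 0.18 with upper-quartile scaling and 0.21 with median-ratio scaling without manipulated replicate 6, 0.041 with library weights, and -0.28 to 0.01 with 1 library left out.

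Under median-ratio scaling, upper-quartile scaling and median-ratio scaling without manipulated replicate 6, the sign turned for Slc2a1 (0.20, 0.18 and 0.19), Slco1a4 (0.073, 0.059 and 0.20) and Vtn (0.20, 0.18 and 0.22). Library weights turned Slco1a4 and Vtn (0.037 and 0.044). Vtn also turned without untreated replicate 1 (0.068) and without manipulated replicate 6 (0.024), with a leave-one-out range of -0.29 to 0.068. Pdgfrb turned without untreated replicate 3 (-0.0056) and without manipulated replicate 5 (-0.024; range -0.024 to 0.16), and Rgs5 without manipulated replicate 4 (-0.018) or 5 (-0.064; range -0.064 to 0.44). The remaining 114 of 131 member values kept their sign. Scaling divides all genes of a library by the same factor, and Cldn5, Flt1, Pdgfrb, Rgs5 and Acta2 kept their sign under the scaled settings. Why the other signs turned was not tested under any setting.

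Acta2, Cldn5 and Flt1 kept their sign throughout, from -1.23 to -0.50, -0.66 to -0.06 and 0.00 to 0.67, with lowest adjusted p of 0.124, 0.0802 and 0.0703. At a mean of at least 5 FPKM, Cldn5, Slc2a1 and Rgs5 alone of the members were tested. No paired analysis was possible because the groups share no replicate number. With no counts deposited, what depth limits cannot be given.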

Other observations

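Plvap, which forms the diaphragms of fenestrated capillaries and is low in barrier endothelium, had 0.493, 0.761 and 0.561 FPKM in manipulated libraries, against 1.61, 3.15 and 1.62 FPKM in untreated libraries. All manipulated values lay under the untreated ones, with a log2 fold change of -0.93 (SE 0.28), an unadjusted p of 0.00851 and an adjusted p of 0.310 in limma, and -0.71 after rescaling. Plpp3, from the same list, averaged 22.7 ± 3.27 FPKM in manipulated and 24.0 ± 4.33 FPKM in untreated rats (adjusted p 0.850).

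Astrocyte endfeet cover brain vessels. Of 9 endfoot and astrocyte genes tested, 0 were called by limma, 3 had an unadjusted p under 0.05, beside 15.1% of all genes, and 4 were lower without overlap, beside 23.7%. Of the 9, 7 lay below 0 and 2, Slc1a2 and Dag1, above it, with a median of -0.33. After rescaling the median was 0.12, with 5 above 0. Without overlap, 2 of the 9 were then higher, beside 10.1% of all genes, and 3 lower, beside 9.86%. Aqp4, also on this list, was left out for a failed estimate. Gjb6, connexin 30, had 4.61, 4.93 and 3.09 FPKM in manipulated libraries, against 9.04, 5.57 and 11.4 FPKM in untreated libraries (adjusted p 0.310). Gfap averaged 48.5 ± 9.84 FPKM in manipulated and 86.7 ± 23.1 FPKM in untreated rats (adjusted p 0.326), and Aldh1l1 1.44 ± 0.443 FPKM in manipulated and 3.46 ± 1.26 FPKM in untreated rats (adjusted p 0.310). Of 8 microglial genes tested, all lay below 0, with a median of -0.44 that was -0.06 after rescaling, and none was called or under an unadjusted p of 0.05.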
